A study of Mus musculus with 59 samples.

Results

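The glucocorticoid receptor gene Nr3c1 and 9 genes known as its targets or partners in muscle were followed across 8 groups of muscle libraries. The members were the rows of the deposited expression table with the symbols Nr3c1, Fkbp5, Tsc22d3, Zbtb16, Klf15, Klf9, Ddit4, Sgk1, Pik3r1 and Hsd11b1, which are 10 of the 47643 gene symbols in the table. All 10 passed the filter on low values in every comparison.

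RNA-seq was done on 59 muscle samples. The mice were female athymic nude animals aged 4 months, each with a human melanoma grown as a patient-derived xenograft. One xenograft induces cachexia, the wasting of muscle and fat seen in cancer, and is called cachectic, and the other does not and is called non-cachectic. Each melanoma is represented by 1 xenograft, so that the ability to induce cachexia and any other property of the tumour cannot be told apart. All animals carried a tumour, so no group shows muscle of mice without cancer.

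Diaphragm came from 4 groups. Mice with the cachectic melanoma had received intraperitoneal injections of recombinant Fibcd1 (rFibcd1), a secreted fibrinogen-domain protein, in the last week (n = 10) or mock injections of the vehicle (n = 10). Mice with the non-cachectic melanoma had likewise received rFibcd1 (n = 10) or mock injections (n = 9). The tibialis anterior, a mostly fast limb muscle, and the soleus, a slower one, were each taken from 5 mice with the cachectic and 5 mice with the non-cachectic melanoma, and the labels of these samples name no injection. Libraries are named here by the number in their column of the table.

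Glucocorticoids are steroid hormones of the adrenal cortex that rise with stress and illness. In the cytoplasm the receptor is held by heat shock chaperones, and on binding the hormone it enters the nucleus and switches target genes on or off. In skeletal muscle its activity is known for slowing protein synthesis and promoting protein breakdown, and an excess of glucocorticoid causes muscle atrophy. Several of its targets also follow the daily rhythm of the hormone and of the circadian clock, and several answer to insulin, FoxO factors or cell stress as well, so that their level is not a readout of the receptor alone.

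Values are TPM, the share of a transcript in its library after reads are divided by transcript length, so that levels can also be compared between genes. Each library sums to 1000000, between 16436 and 19456 genes were above 0 in a library, and the depth of the libraries is unknown. Differences are on the log2(TPM + 1) scale and a gene is called at a limma adjusted p (Benjamini-Hochberg, over all genes tested) under 0.05, 2-sided. Because TPM are shares of a total, scaling matters. The transcripts encoded by mitochondrial DNA took a median of 47.3% of the total in non-cachectic and 38.7% in cachectic mock diaphragm, 47.7% and 40.6% in tibialis anterior, and 41.0% and 30.6% in soleus, and the median gene was higher by 0.20, 0.41 and 0.09 in the cachectic groups. With libraries rescaled by median ratios these medians were 0.01, -0.02 and 0.01, and called genes that were higher went from 4143 of 4501 to 986 of 2118 in the diaphragm, from 6260 of 6680 to 2027 of 4473 in tibialis anterior and from 2098 of 2999 to 1821 of 3360 in soleus.

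The libraries also differed in the level of a pseudogene, unevenly between the groups. This pseudogene, Pcna-ps2, was above 1 TPM in 9 of 10 cachectic mock, 8 of 10 cachectic rFibcd1, 6 of 10 non-cachectic rFibcd1 and 3 of 9 non-cachectic mock diaphragm libraries. In the limb muscles it was above 1 TPM in every cachectic and in no non-cachectic library, so that this state and the melanoma cannot be told apart there. An index of clock genes (Arntl and Npas2 minus Dbp, Per2, Per3, Ciart, Nr1d2, Hlf and Tef, on the log2 scale) had medians of -3.34 in cachectic mock, -3.70 in non-cachectic mock, -2.65 in cachectic rFibcd1 and -0.54 in non-cachectic rFibcd1 diaphragm. Markers of muscle fibres were abundant in all groups.

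The members apart from Nr3c1 were placed with GENCODE vM21 on GRCm38. Fkbp5 spans chr17:28399094-28517527 on the minus strand, Tsc22d3 chrX:140539528-140600659 on the minus strand, Zbtb16 chr9:48654297-48836222 on the minus strand, and Klf15 chr6:90462576-90475238 on the plus strand. Klf9 spans chr19:23141226-23168134 on the plus strand, Pik3r1 chr13:101680563-101768217 on the minus strand, and Hsd11b1 chr1:193221634-193264075 on the minus strand. Ddit4 (chr10:59949669-59951834, minus strand) and Sgk1 (chr10:21882184-21999903, plus strand) share a chromosome. No exon of these members overlapped an exon of another gene in that annotation.

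Promoter windows of 8 members (all but Nr3c1 and Zbtb16) were in the RefSeq table of GRCm38.p6, with 16 starts in all, each window holding 250 bases before and 50 bases after a start. The palindrome that the receptor binds as a dimer was searched as GNACA, any 3 bases and TGTNC, on both strands. It was found in 1 of the 16 windows, at start 5 of Sgk1, and in 156 of the 32851 windows of all genes (0.475%). Its half-site, AGAACA or TGTTCT, was in 4 of the 16 windows, all of Tsc22d3 or Sgk1, and in 19.0% of all windows. The E-box CACGTG, which clock factors and other helix-loop-helix proteins can bind, was in 3 windows (Fkbp5, Klf15 and Sgk1) and in 7.15% of all windows. The FoxO motif, GTAAACA or TGTTTAC, was in 2 windows (Klf9 and Hsd11b1) and in 3.65% of all. A match is a description of the letters, not evidence of binding, and receptor sites often lie far from a start.

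The 3 windows upstream of the start that hold an E-box or the palindrome are shown because they contrast the 2 kinds of match. Each run is the 250 bases before the start, read 5′ to 3′ on the strand of the gene, and capitals mark the motifs. Fkbp5 (chr17:28486150-28486399, minus strand) has 1 E-box and no half-site. Klf15 (chr6:90462326-90462575, plus strand) has 3 E-boxes, of which the third runs across the start, so that its last bases are outside the printed run. Sgk1 (chr10:21993640-21993889, plus strand) has an E-box that shares bases with a half-site near the 5′ end, and then the palindrome, which begins 188 bases before the start.
Fkbp5: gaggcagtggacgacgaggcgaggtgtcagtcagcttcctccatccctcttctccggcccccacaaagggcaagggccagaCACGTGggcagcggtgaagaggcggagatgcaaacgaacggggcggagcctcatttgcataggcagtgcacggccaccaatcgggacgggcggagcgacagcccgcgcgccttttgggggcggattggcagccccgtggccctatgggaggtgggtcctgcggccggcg
Klf15: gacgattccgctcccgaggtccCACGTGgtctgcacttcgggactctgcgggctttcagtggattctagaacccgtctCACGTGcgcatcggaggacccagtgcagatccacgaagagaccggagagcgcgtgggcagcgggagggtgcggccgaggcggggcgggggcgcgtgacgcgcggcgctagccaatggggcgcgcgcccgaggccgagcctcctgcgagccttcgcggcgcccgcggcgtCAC
Sgk1, start 5: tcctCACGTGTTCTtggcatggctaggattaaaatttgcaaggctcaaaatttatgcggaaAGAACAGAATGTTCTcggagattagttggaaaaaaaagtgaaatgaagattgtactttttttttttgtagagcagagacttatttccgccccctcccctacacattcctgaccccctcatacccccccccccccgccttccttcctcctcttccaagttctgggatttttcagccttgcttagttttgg

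**Figure D1:**
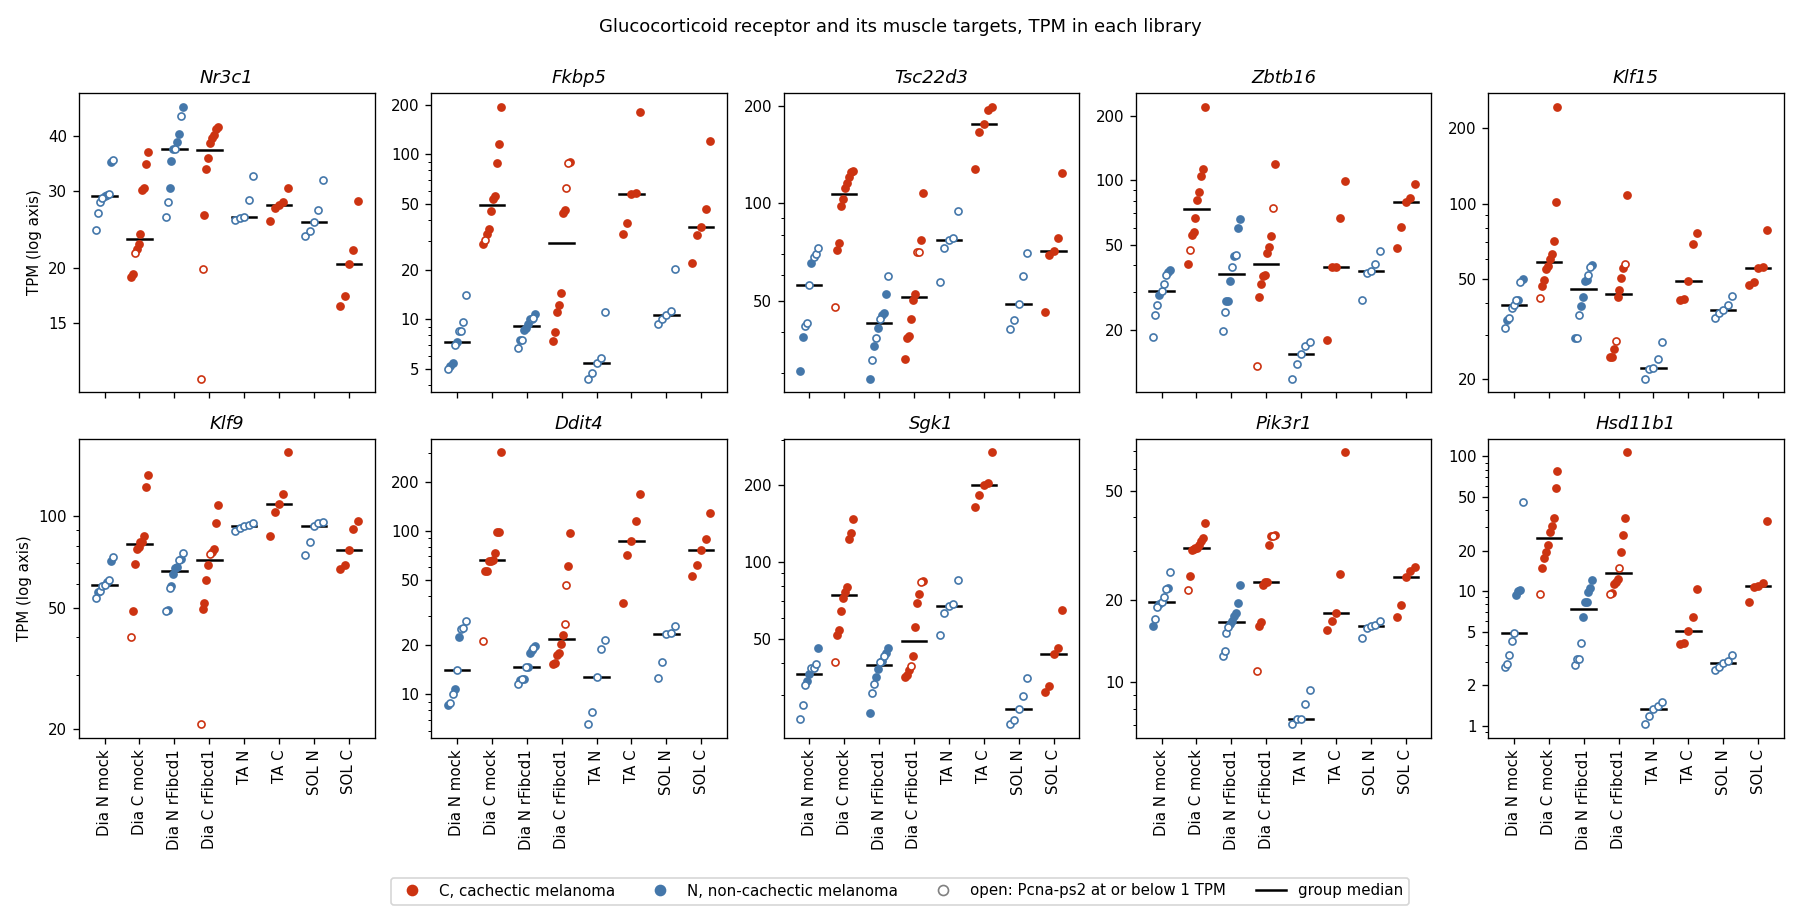
TPM (log axis, a scale for each gene) of the 10 members in each of the 59 libraries, by muscle, melanoma (C cachectic, N non-cachectic) and injection, with the group median as a bar and open points for libraries with Pcna-ps2 at or below 1 TPM. Fkbp5 in the cachectic mock diaphragm (28.8 to 195 TPM) lies wholly above the non-cachectic one (5.00 to 14.0 TPM), while the ranges of Nr3c1 overlap in all 3 muscles.

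The receptor itself was compared first between the melanomas. In mock-treated diaphragm Nr3c1 ranged from 24.5 to 35.2 TPM (median 29.2) with the non-cachectic and from 19.1 to 36.7 TPM (median 23.3) with the cachectic melanoma. The ranges overlapped, 6 of 10 cachectic libraries lay below the lowest non-cachectic one, and the log2 difference was -0.20 (SE 0.167, limma adjusted p 0.347). Under median-ratio scaling Nr3c1 was lower in the cachectic group and was called (-0.43, adjusted p 0.0196). In tibialis anterior Nr3c1 was at 25.7, 26.0, 26.1, 28.6 and 32.4 TPM with the non-cachectic and 25.7, 27.4, 27.8, 28.3 and 30.4 TPM with the cachectic melanoma, which are nearly the same values (0.01, adjusted p 0.912; -0.47, adjusted p 0.021, under median-ratio scaling). In soleus it was at 23.7, 24.3, 25.5, 27.1 and 31.8 TPM against 16.4, 17.3, 20.4, 22.0 and 28.5 TPM, with 4 of 5 cachectic libraries below every non-cachectic one (-0.34, adjusted p 0.094; -0.43, adjusted p 0.0434, under median-ratio scaling; -0.46, adjusted p 0.0169, without library 10). The call on the receptor therefore depended on the scaling in all 3 muscles, and no scaling called it higher.

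In mock-treated diaphragm 8 of the 10 members were higher with the cachectic melanoma and 2, Nr3c1 and Klf9, were not called. Of the 13426 genes tested, 33.5% were called and 30.9% were called higher. The median log2 difference of the members was 1.00, against 0.20 over all genes. Under median-ratio scaling 7 members were called higher and 1 lower, against 7.34% of all genes higher and 8.43% lower. Among the libraries with Pcna-ps2 above 1 TPM (9 cachectic and 3 non-cachectic), 5 members were called, when 805 of 14159 genes were, and the calls of Zbtb16 (1.22, limma adjusted p 0.0608), Klf15 (0.77, limma adjusted p 0.204) and Hsd11b1 (1.48, limma adjusted p 0.0739) were lost. With this state as a term in the fit of all libraries 6 members were called, when 2059 of 13426 genes were, and the calls of Klf15 (0.67, limma adjusted p 0.0842) and Pik3r1 (0.44, limma adjusted p 0.0501) were lost. Zbtb16, Klf15 and Ddit4 are among the genes the study picked on these samples, so their calls are not independent evidence.

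Fkbp5 encodes a co-chaperone that holds the receptor in a state of low hormone affinity and is itself induced by the receptor. It ranged from 5.00 to 14.0 TPM (median 7.30) in non-cachectic and from 28.8 to 195 TPM (median 49.3) in cachectic mock diaphragm. All 10 cachectic libraries lay above all 9 non-cachectic ones, as was so for 4.07% of the genes tested. The ratio of the medians was 6.76 and the log2 difference 2.74 (SE 0.383, limma adjusted p 8.2e-06). Fkbp5 had the largest log2 difference of the members in this comparison, and without library 20, the highest at 195 TPM, it was 2.54.

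Ddit4, also called REDD1, restrains the growth kinase complex mTORC1. It ranged from 8.56 to 28.1 TPM (median 14.0) in non-cachectic and from 21.2 to 303 TPM (median 65.9) in cachectic mock diaphragm, and 9 of 10 cachectic libraries lay above the highest non-cachectic one. The difference was 2.17 (SE 0.330, limma adjusted p 2.25e-05), and 1.94 without library 20, the highest at 303 TPM.

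The estimates for the transcription factors among the targets were smaller than those of Fkbp5 and Ddit4, and this difference in size was not tested. Zbtb16, a zinc finger protein that is strongly induced by glucocorticoids in many cells, ranged from 18.5 to 37.8 TPM (median 30.4) and from 40.6 to 221 TPM (median 73.7), again with no overlap (1.36, SE 0.283, limma adjusted p 0.000532). Klf15, a Krüppel-like factor that directs amino acid breakdown in muscle, ranged from 32.0 to 49.9 TPM (median 39.2) and from 42.1 to 244 TPM (median 58.2). The 2 groups overlapped, with 7 of 10 cachectic libraries above the highest non-cachectic one, and library 20 stood far above the next at 101 TPM. The difference of Klf15 was 0.76 (SE 0.243, limma adjusted p 0.0155), 0.56 without that library (adjusted p 0.0356), and 0.54 with no call under median-ratio scaling (adjusted p 0.155). Klf9, a related factor that answers to glucocorticoid and thyroid hormone, was at 53.9 to 73.3 TPM (median 59.5) and 40.2 to 136 TPM (median 80.9). Cachectic libraries lay both above and below the non-cachectic range, and Klf9 was not called (0.35, SE 0.198, limma adjusted p 0.163; 0.12 under median-ratio scaling).

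Tsc22d3, also called GILZ, is an anti-inflammatory leucine zipper protein. It ranged from 30.5 to 72.8 TPM (median 56.1) in non-cachectic and from 47.9 to 126 TPM (median 107) in cachectic mock diaphragm (0.87, SE 0.196, limma adjusted p 0.00114). Sgk1, a kinase induced by serum and glucocorticoids that regulates ion transport and FoxO factors, ranged from 24.1 to 45.9 TPM (median 36.4) and from 40.4 to 147 TPM (median 74.0) (1.13, SE 0.198, limma adjusted p 0.00011). Pik3r1, the regulatory subunit of phosphoinositide 3-kinase in insulin signalling, ranged from 16.1 to 25.3 TPM (median 19.7) and from 21.8 to 38.1 TPM (median 30.8) (0.58, SE 0.148, limma adjusted p 0.00352; 0.35 under median-ratio scaling, limma adjusted p 0.0437). For these genes the groups overlapped by 1 or 2 cachectic libraries: 8 of 10 lay above the highest non-cachectic library for Tsc22d3, 9 for Sgk1 and 8 for Pik3r1. Library 22, whose Pcna-ps2 was low, had the lowest value of the group for all 3.

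Hsd11b1 encodes the enzyme that regenerates active glucocorticoid from its inactive form inside the cell. It ranged from 2.74 to 45.7 TPM (median 4.86) in non-cachectic and from 9.51 to 77.4 TPM (median 24.6) in cachectic mock diaphragm. Every cachectic library was above the non-cachectic median, but only 2 were above the highest non-cachectic library. That library, number 64 at 45.7 TPM, stood apart from the next at 10.1 TPM and held the highest sum of 4 liver markers of all diaphragm libraries, 7610 TPM, against a group median of 17.99 TPM. The difference was 1.79 (SE 0.420, limma adjusted p 0.00167), 2.11 (adjusted p 0.000257) without library 64 and 1.74 (adjusted p 0.00357) without library 32, which at 1990 TPM held the most liver marker transcript of the cachectic group. Liver makes Hsd11b1 in abundance, as fat does to a lesser degree.

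Sums of cell type markers differed between the melanomas as well, with no test. The sum of 5 macrophage markers ranged from 70.1 to 164 TPM (median 128) in non-cachectic and from 113 to 396 TPM (median 292) in cachectic mock diaphragm, that of 7 adipocyte markers from 711 to 2391 TPM (median 842) and from 1161 to 5500 TPM (median 1722), and that of 4 neutrophil markers from 2.99 to 20.3 TPM (median 5.42) and from 9.33 to 53.5 TPM (median 28.4). In limb muscle the medians of the macrophage sum were 13.8 and 53.2 TPM in tibialis anterior and 46.7 and 107 TPM in soleus, and those of the adipocyte sum were 323 and 408 TPM and 1586 and 1742 TPM. In mock diaphragm the medians, non-cachectic before cachectic, were 780 and 1008 TPM for 4 fibroblast markers and 35653 and 45923 TPM for 6 muscle fibre markers. The neutrophil medians were 2.61 and 9.80 TPM in tibialis anterior and 3.70 and 15.4 TPM in soleus. The fibroblast sum was higher with the cachectic melanoma in tibialis anterior (medians 184 and 326 TPM) and lower in soleus (594 and 250 TPM), whereas the muscle fibre sum was lower in tibialis anterior (62760 and 53072 TPM) and higher in soleus (48468 and 64235 TPM). The sum of 4 endothelial markers had medians of 196 and 219 TPM in mock diaphragm, 94.7 and 134 TPM in tibialis anterior and 163 and 155 TPM in soleus. In diaphragm with rFibcd1 the medians were 138 and 279 TPM for macrophages and 9.11 and 32.3 TPM for neutrophils. The members are expressed in these cells too, and the part of cell composition in their differences was not tested. In whole muscle, more cells of a type and more RNA per cell cannot be told apart.

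**Figure D2:**
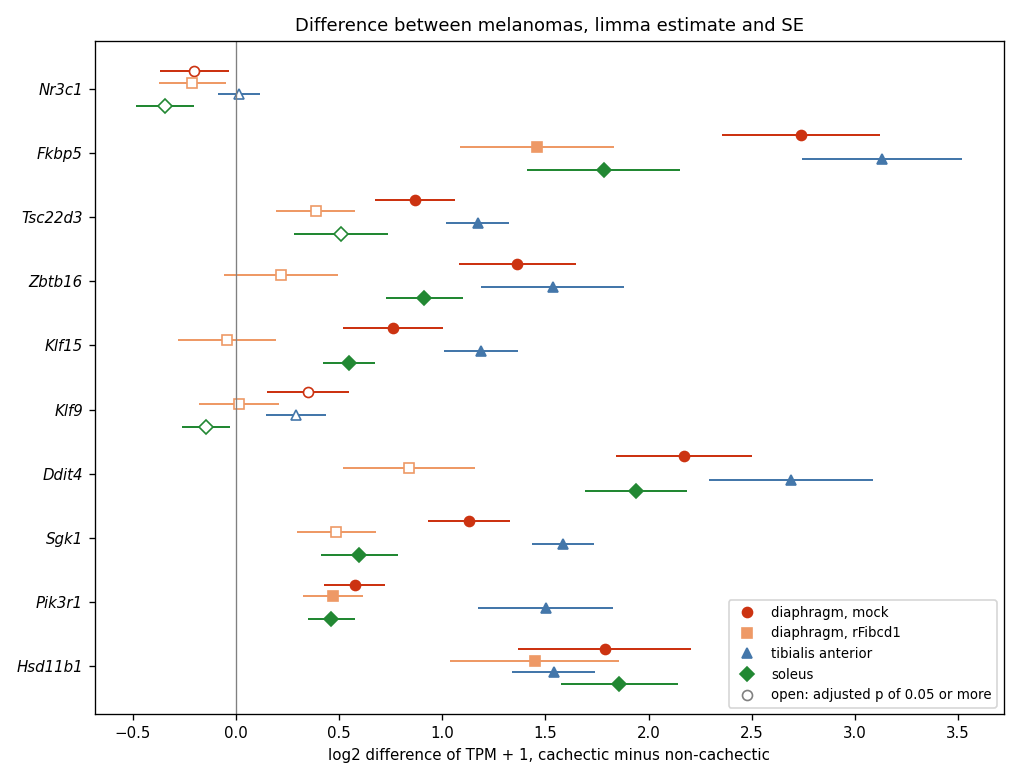
Difference between the melanomas for each member (log2 of TPM + 1, cachectic minus non-cachectic) with its limma standard error, in diaphragm with mock (13426 genes tested) or rFibcd1, in tibialis anterior and in soleus; filled symbols were called. In mock-treated diaphragm and in soleus Fkbp5, Ddit4 and Hsd11b1 lie farthest to the right, in tibialis anterior Fkbp5, Ddit4 and Sgk1 (1.58, with Hsd11b1 at 1.54), and Nr3c1 (-0.20 in mock diaphragm, 0.01 in tibialis anterior, where it is -0.47 under median-ratio scaling, and -0.34 in soleus) and Klf9 lie near 0.

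In tibialis anterior 8 members were called higher with the cachectic melanoma, the same 8 as in mock-treated diaphragm, against 56.4% of the 11105 genes tested (60.2% were called in either direction). For all 8 every cachectic library lay above every non-cachectic one, which was so for 49.1% of the genes tested, so that a separation of the groups was common in this muscle. The median difference was 1.52 among the members and 0.41 over all genes. Fkbp5 was at 4.37, 4.71, 5.43, 5.80 and 11.03 TPM with the non-cachectic and at 32.8, 38.2, 57.6, 58.1 and 180 TPM with the cachectic melanoma (3.13, SE 0.390, limma adjusted p 0.000241). Ddit4 was at 6.57, 7.79, 12.8, 18.9 and 21.5 TPM and at 36.0, 71.7, 87.1, 115 and 167 TPM (2.69, SE 0.396, limma adjusted p 0.000652). The ratio of the medians was 10.6 for Fkbp5 and 6.81 for Ddit4.

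Sgk1 was the member with the smallest p in tibialis anterior. It was at 51.6, 62.9, 67.1, 68.3 and 84.5 TPM with the non-cachectic and at 164, 182, 199, 203 and 268 TPM with the cachectic melanoma, a wide gap between the groups (1.58, SE 0.153, limma adjusted p 5.22e-05). Tsc22d3 was at 57.2, 72.8, 77.2, 78.1 and 94.8 TPM and at 127, 166, 175, 194 and 199 TPM (1.17, SE 0.152, limma adjusted p 0.000325; 0.67 under median-ratio scaling, limma adjusted p 0.0191). Hsd11b1, which was near the bottom of the scale in this muscle, was at 1.03, 1.18, 1.34, 1.41 and 1.51 TPM and at 4.02, 4.10, 5.07, 6.41 and 10.3 TPM (1.54, SE 0.201, limma adjusted p 0.000332). At such low values the added pseudocount of 1 understates the change, and the ratio of the medians was 3.79.

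Pik3r1 was at 7.04, 7.38, 7.38, 8.31 and 9.41 TPM in non-cachectic and at 15.5, 16.7, 17.8, 24.8 and 69.1 TPM in cachectic tibialis anterior (1.5, SE 0.328, limma adjusted p 0.00449). Zbtb16 was at 11.8, 13.8, 15.3, 16.8 and 17.5 TPM and at 17.8, 39.2, 39.3, 66.8 and 99.4 TPM (1.53, limma adjusted p 0.00532), with the lowest cachectic library just above the highest non-cachectic one. Klf15 was at 20.02, 21.9, 22.0, 23.9 and 28.0 TPM and at 41.3, 41.7, 49.2, 69.3 and 76.3 TPM (1.19, limma adjusted p 0.000743; 0.70 under median-ratio scaling, limma adjusted p 0.00571). The cachectic values spread much more widely than the non-cachectic ones for these genes. Klf9 was at 89.5, 91.3, 92.8, 93.5 and 95.3 TPM and at 86.0, 104, 110, 118 and 162 TPM, and was not called (0.29, limma adjusted p 0.0925; -0.21 under median-ratio scaling). Without library 6, the lowest of its group, Klf9 was called (0.39, adjusted p 0.0236). Library 8 was the highest cachectic tibialis anterior library for 7 members (Fkbp5, Zbtb16, Klf15, Klf9, Sgk1, Pik3r1 and Hsd11b1). Without it the same 8 members were called, with Fkbp5 at 2.74, Zbtb16 at 1.25 and Pik3r1 at 1.13.

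In soleus 7 members were called higher with the cachectic melanoma, all but Nr3c1, Klf9 and Tsc22d3, against 17.5% of the 11957 genes tested (25.1% were called in either direction). For 6 of them the groups did not overlap, as for 14.6% of all genes. The median difference was 0.57 among the members and 0.09 over all genes. Ddit4 was at 12.6, 15.7, 23.3, 23.6 and 26.2 TPM and at 53.2, 61.5, 76.5, 89.0 and 129 TPM (1.94, SE 0.248, limma adjusted p 0.000441). Hsd11b1 was at 2.58, 2.71, 2.93, 3.02 and 3.33 TPM and at 8.35, 10.8, 10.96, 11.6 and 33.2 TPM (1.86, SE 0.282, limma adjusted p 0.00119). In soleus the liver markers summed to at most 1.45 TPM in the cachectic libraries, and in the non-cachectic ones to a median of 1.56 and at most 60.5 TPM.

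Fkbp5 in soleus was at 9.42, 10.1, 10.6, 11.3 and 20.1 TPM with the non-cachectic and at 22.1, 32.7, 36.1, 47.0 and 120 TPM with the cachectic melanoma (1.78, SE 0.371, limma adjusted p 0.00571). Zbtb16 was at 27.5, 36.8, 37.5, 40.7 and 46.6 TPM and at 48.1, 60.3, 79.1, 82.3 and 95.9 TPM (0.91, limma adjusted p 0.00513). The 2 groups touched most closely for these genes at 20.1 against 22.1 TPM and at 46.6 against 48.1 TPM. Klf15 was at 34.98, 36.4, 37.7, 39.2 and 42.6 TPM and at 47.4, 48.8, 55.1, 55.7 and 78.1 TPM (0.55, limma adjusted p 0.00909). Pik3r1 was at 14.5, 15.8, 16.1, 16.2 and 16.8 TPM and at 17.3, 19.2, 24.1, 25.5 and 26.3 TPM (0.46, limma adjusted p 0.014).

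Sgk1 in soleus was at 23.2, 24.1, 26.6, 29.9 and 34.98 TPM and at 30.9, 32.6, 43.7, 46.0 and 64.6 TPM, and its call was the weakest of the 7 (0.60, SE 0.188, limma adjusted p 0.0371). The call was lost without any of 7 of the 10 libraries and under median-ratio scaling (adjusted p 0.105). Tsc22d3 was at 41.1, 43.6, 49.0, 59.7 and 70.3 TPM and at 46.3, 69.3, 71.1, 78.2 and 124 TPM, and the overlapping groups gave no call (0.51, SE 0.227, limma adjusted p 0.121). Without library 6, the lowest of the cachectic group, it was called (0.68, adjusted p 0.0286). Klf9 was at 74.7, 82.6, 93.1, 94.7 and 95.6 TPM and at 66.9, 68.9, 77.7, 90.6 and 96.6 TPM, with 4 of 5 cachectic libraries below the non-cachectic median and no call (-0.14, limma adjusted p 0.398). The clock index did not overlap between the groups in soleus (-4.27 to -3.36 in non-cachectic and -3.11 to -1.53 in cachectic libraries), so that it and the melanoma cannot be told apart there, and the fit with the index as a term says nothing of the members.

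Whether the response to the cachectic melanoma differed between muscles was tested for each member with a contrast of the 2 differences. Pik3r1 responded more in tibialis anterior than in mock-treated diaphragm (difference of the effects -0.93, limma adjusted p 0.0366) and than in soleus (1.04, limma adjusted p 0.0171). Sgk1 responded more in tibialis anterior than in soleus (0.99, limma adjusted p 0.0417), but not under median-ratio scaling (adjusted p 0.307). Of all genes, 5.04%, 20.4% and, between diaphragm and soleus, 2.52% were called. For the other members the effects in the 3 muscles did not pass the test of their difference in this fit. With the column number that muscles share as a block, Fkbp5 (1.35, limma adjusted p 0.0124) and Tsc22d3 (0.66, limma adjusted p 0.0344) were also called between tibialis anterior and soleus, when 5569 of 13501 genes were. In the fit without the block, median-ratio scaling gave 1.00 for Fkbp5 (limma adjusted p 0.276) and 0.25 for Tsc22d3 (limma adjusted p 0.714). The ratio of the medians of Fkbp5 was 6.76 in diaphragm, 10.6 in tibialis anterior and 3.40 in soleus.

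The size of the Pik3r1 result rested in part on library 8 of tibialis anterior, at 69.1 TPM far above the next at 24.8 TPM. That library stood apart from the other 4 of its group in its muscle fibre sum (30897 TPM, others from 49546 TPM), its mitochondrial share (25.1%, others from 38.9%), its neutrophil sum (49.3 TPM, others to 18.9 TPM) and its clock index (-0.43, others to -2.50). It was also highest in the endothelial (224 TPM, others to 138 TPM) and macrophage sums (107 TPM, others to 68.9 TPM). The same held for the adipocyte (524 TPM, others to 420 TPM) and fibroblast sums (438 TPM, others to 356 TPM). The part of these values in the result was not tested. Without library 8 the difference of effects between diaphragm and tibialis anterior turned from -0.39 to 0.0012 for Fkbp5 and from -0.17 to 0.11 for Zbtb16, neither called. For Pik3r1 the difference from diaphragm was -0.55 (limma adjusted p 0.0632) and that from soleus 0.67 (limma adjusted p 0.0166), and the call against diaphragm was lost without any of 8 libraries. The call on Sgk1 was lost without any of 12 libraries (adjusted p at most 0.0988). The comparisons of muscles share libraries, and whether the same mice gave diaphragm and limb muscle is not stated in the labels.

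Levels were also compared between muscles among mice with the non-cachectic melanoma, where the share of members called did not exceed that of all genes. Between mock-treated diaphragm and tibialis anterior 7 members were called, against 72.5% of the 13501 genes tested. Hsd11b1 (1.78), Pik3r1 (1.24), Zbtb16 (0.94) and Klf15 (0.75) were higher in diaphragm, and Sgk1 (-0.91), Klf9 (-0.59) and Tsc22d3 (-0.52) were lower, by limma at adjusted p from 5.95e-07 to 0.0297. Between diaphragm and soleus 1 member was called, Klf9, which was lower in diaphragm (-0.52, limma adjusted p 0.0174), against 38.8% of all genes. Between tibialis anterior and soleus 4 were called, against 69.5% of all genes: Sgk1 was higher in tibialis anterior (1.24), and Zbtb16 (-1.27), Pik3r1 (-0.92) and Klf15 (-0.70) were lower. The median gene differed by 0.44, -0.04 and -0.47 in these comparisons. Under median-ratio scaling Nr3c1 was called lower in diaphragm than in tibialis anterior (-0.48, against 0.09 before) and higher in tibialis anterior than in soleus (0.68), Tsc22d3 (1.15, limma adjusted p 0.000168) and Klf9 (0.70, limma adjusted p 0.00117) were also called higher in tibialis anterior than in soleus, Pik3r1 (0.36, limma adjusted p 0.033) and Hsd11b1 (1.05, limma adjusted p 0.0309) were called higher in diaphragm than in soleus, the calls of Zbtb16 and Klf15 between diaphragm and tibialis anterior were lost (0.39 and 0.20), and those of Zbtb16, Klf15 and Pik3r1 between tibialis anterior and soleus were lost (-0.67, -0.09 and -0.35). Between diaphragm and tibialis anterior the other 5 calls were kept, at -1.48 for Sgk1, -1.17 for Klf9, -1.10 for Tsc22d3, 0.71 for Pik3r1 and 1.43 for Hsd11b1. Without median-ratio scaling the call of Tsc22d3 there was lost without any of 5 libraries (limma adjusted p at most 0.092).

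Across the 8 groups the mean of Fkbp5 ran from 73.3 ± 60.7 TPM (SD, n = 5) in cachectic tibialis anterior, through 68.1 ± 52.7 (n = 10) in cachectic mock diaphragm, 51.6 ± 39.3 (n = 5) in cachectic soleus and 38.5 ± 32.9 (n = 10) in cachectic rFibcd1 diaphragm, to the 4 non-cachectic groups. Those were at 12.3 ± 4.41 (n = 5) in soleus, 8.94 ± 1.37 (n = 10) in rFibcd1 diaphragm, 7.84 ± 2.84 (n = 9) in mock diaphragm and 6.27 ± 2.72 TPM (n = 5) in tibialis anterior. No neighbours in this order differed by more than the larger SD of the pair on the log2 scale. The same was so for Nr3c1, from 36.5 ± 6.64 TPM in non-cachectic rFibcd1 diaphragm to 20.9 ± 4.81 TPM in cachectic soleus, and for Klf9, from 116 ± 28.5 TPM in cachectic tibialis anterior to 61.4 ± 6.62 TPM in non-cachectic mock diaphragm.

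For the other members 1 or 2 of the 7 steps in the order exceeded that spread. Sgk1 (203 ± 39.4 TPM) and Tsc22d3 (172 ± 28.5 TPM) in cachectic tibialis anterior stood above the group next in order, cachectic mock diaphragm, at 83.8 ± 36.7 and 99.5 ± 26.3 TPM. For Ddit4 the step lay between the 3 cachectic groups without rFibcd1, the lowest in order at 90.5 ± 77.9 TPM in diaphragm, and cachectic rFibcd1 diaphragm at 34.1 ± 26.7 TPM, where ranks follow the mean of log2 values. At the bottom, non-cachectic tibialis anterior stood below the next group for Zbtb16 (15.05 ± 2.33 TPM), Klf15 (23.2 ± 3.04 TPM), Pik3r1 (7.90 ± 0.966 TPM) and Hsd11b1 (1.29 ± 0.191 TPM), and non-cachectic soleus did so for Sgk1 (27.7 ± 4.82 TPM). The remaining steps were those of Pik3r1 from non-cachectic mock (20.1 ± 2.79 TPM) to rFibcd1 diaphragm (16.7 ± 2.96 TPM) and of Hsd11b1 from cachectic tibialis anterior (5.99 ± 2.62 TPM) to non-cachectic soleus (2.91 ± 0.290 TPM).

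The injection of rFibcd1 was compared with mock in mice with the cachectic melanoma. By limma 0 of 10 members were called, as were 0.0447% of all genes, and Dunn's test, adjusted here over all genes tested and on all 10 and 10 libraries, called 0 members as well. The study used Dunn's test with another threshold and fewer samples, so the counts cannot be set side by side. At an unadjusted p under 0.05 there were 7 of 10 members, against 10.5% of genes. The values were lower with rFibcd1 for 9 members and higher for Nr3c1, and the median difference was -0.62 against 0.03 over all genes. With these 10 and 10 libraries all members overlapped between the 2 groups.

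Ddit4 had the largest difference. It ranged from 15.4 to 96.8 TPM (median 21.7) with rFibcd1 and from 21.2 to 303 TPM (median 65.9) with mock, and 9 of 10 rFibcd1 libraries lay below the mock median (-1.36, SE 0.321, limma adjusted p 0.131). Tsc22d3 ranged from 33.2 to 108 TPM (median 51.4) against 47.9 to 126 TPM (median 107) (-0.79, SE 0.190, limma adjusted p 0.132). Zbtb16 ranged from 13.5 to 118 TPM (median 40.7) against 40.6 to 221 TPM (median 73.7) (-0.86, SE 0.275, limma adjusted p 0.254). For each of these between 4 and 5 rFibcd1 libraries lay below every mock library.

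Fkbp5 was the most widely spread with rFibcd1 in cachectic mice. Its values were 7.44, 8.34, 11.1, 12.2, 14.4, 44.1, 45.9, 62.4, 88.2 and 90.5 TPM, in libraries 2, 18, 1, 16, 17, 5, 4, 11, 14 and 3. The 5 lowest were below every cachectic mock library (28.8 TPM and above), and 3 of these, in libraries 1, 16 and 17, were still above every non-cachectic rFibcd1 library (6.71 to 10.8 TPM). The other 5 lay within the mock range (-1.06, SE 0.373, limma adjusted p 0.309). Libraries 11 and 14 had Pcna-ps2 at or below 1 TPM. The sum of the muscle fibre markers was 27413 to 37957 TPM in the 5 libraries lowest for Fkbp5 and 50977 to 60903 TPM in the other 5. The clock index was -2.84 to 1.21 in the 5 lowest and -3.26 to -2.45 in the other 5, with some overlap. The part of either in the spread of Fkbp5 was not tested.

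The remaining members gave smaller values. Klf15 ranged from 24.3 to 108 TPM (median 43.6) with rFibcd1, against a mock median of 58.2 TPM (-0.70, limma adjusted p 0.286), and Sgk1 from 35.4 to 84.1 TPM (median 49.1), against 74.0 TPM (-0.54, limma adjusted p 0.313). Pik3r1 ranged from 10.97 to 34.4 TPM (median 23.2; -0.36, limma adjusted p 0.366), Klf9 from 20.7 to 109 TPM (median 71.9; -0.29, limma adjusted p 0.609) and Hsd11b1 from 9.55 to 108 TPM (median 13.6; -0.48, limma adjusted p 0.707). Library 3 was the highest with rFibcd1 for Fkbp5, Tsc22d3, Zbtb16, Klf15, Klf9, Ddit4, Sgk1 and Hsd11b1. Nr3c1 ranged from 11.2 to 42.0 TPM (median 37.1) against 19.1 to 36.7 TPM (median 23.3), with 5 of 10 rFibcd1 libraries above every mock library (0.27, SE 0.163, limma adjusted p 0.576).

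The count of calls in this comparison turned on single libraries. Without library 3 limma called 4 members and 0.947% of all genes: Ddit4 (-1.56, adjusted p 0.0101), Tsc22d3 (-0.90, adjusted p 0.015), Zbtb16 (-1.02, adjusted p 0.0465) and Klf15 (-0.85, adjusted p 0.0492). Without library 22 of the mock group it called 2 members and 0.164% of all genes, Ddit4 (-1.55, adjusted p 0.0283) and Tsc22d3 (-0.90, adjusted p 0.0288), and without library 4 it called Ddit4 (-1.48, adjusted p 0.0477) and 0.135% of all genes. Among the libraries with Pcna-ps2 above 1 TPM, 4 members were called, when 789 of 14159 genes were: Fkbp5 (-1.53, adjusted p 0.0366), Tsc22d3 (-0.99, adjusted p 0.0189) and Ddit4 (-1.64, adjusted p 0.0196) were lower and Nr3c1 (0.49, adjusted p 0.0283) was higher with rFibcd1.

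**Figure D3:**
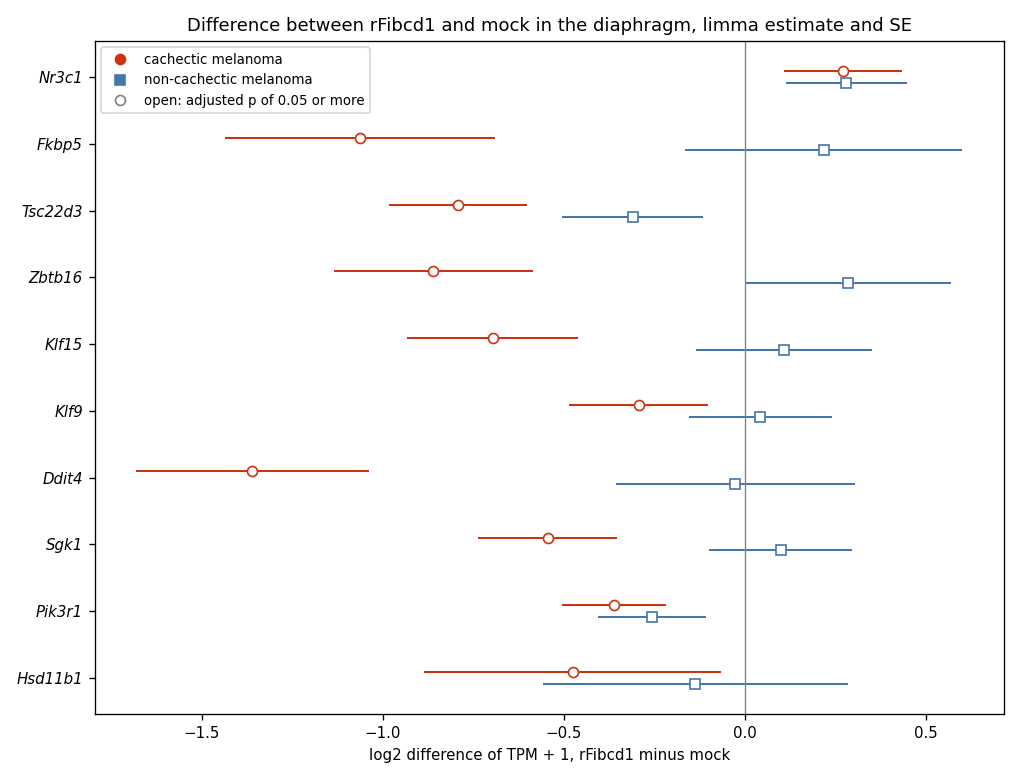
Difference between rFibcd1 and mock in the diaphragm for each member (log2 of TPM + 1) with its limma standard error, with the cachectic and the non-cachectic melanoma; open symbols were not called, which holds for all 20 values. With the cachectic melanoma 9 of 10 estimates are below 0, from -1.36 for Ddit4 to 0.27 for Nr3c1. With the non-cachectic one they lie between -0.31 and 0.29. Under median-ratio scaling the latter lie between -0.49 for Tsc22d3 and 0.11 for Zbtb16, and those of Klf15, Klf9 and Sgk1 change sign.

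With the non-cachectic melanoma no member was called by limma between rFibcd1 and mock, against 0.417% of all genes. At an unadjusted p under 0.05 there were 0 of 10 members, against 17.4% of genes. Fkbp5 ranged from 6.71 to 10.8 TPM (median 9.08) with rFibcd1 and from 5.00 to 14.0 TPM (median 7.30) with mock, and Ddit4 from 11.6 to 19.9 TPM (median 14.7) and from 8.56 to 28.1 TPM (median 14.0). Tsc22d3 ranged from 28.8 to 59.8 TPM (median 42.7) against 30.5 to 72.8 TPM (median 56.1) (-0.31, limma adjusted p 0.347). The ranges of all 10 members overlapped, and Hsd11b1 lay between 2.83 and 12.02 TPM (median 7.36). Clock genes, in contrast, were called in this comparison (3 higher and 7 lower of 16).

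Between the melanomas in mice that received rFibcd1, 3 members were called, against 9.11% of all genes. Fkbp5 (1.46, SE 0.373, limma adjusted p 0.0116), Hsd11b1 (1.45, SE 0.409, limma adjusted p 0.0217) and Pik3r1 (0.47, SE 0.144, limma adjusted p 0.034) were higher with the cachectic melanoma. Hsd11b1 was at 9.55 to 108 TPM (median 13.6) against 2.83 to 12.02 TPM (median 7.36) and Pik3r1 at 10.97 to 34.4 TPM (median 23.2) against 12.5 to 22.6 TPM (median 16.6). Ddit4 was at 15.4 to 96.8 TPM against 11.6 to 19.9 TPM, with all 10 cachectic libraries above the non-cachectic median and 6 above the highest non-cachectic one, but was not called (0.84, SE 0.321, limma adjusted p 0.0909). No member separated the groups.

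The 3 calls depended on the fit. The Dunn test called 0 members, as did the fits with the clock index as a term and with high Pcna-ps2 libraries only, and a fit of the 2 groups alone called 1. Without library 3, which held the highest Hsd11b1 (108 TPM, next 34.7 TPM) and a liver marker sum of 1299 TPM, limma called 1 member, and Hsd11b1 was at 1.17 (adjusted p 0.0512). The share of all genes called in these fits is not given here. Whether the members lost more calls than other genes can therefore not be read from the counts. The call of Pik3r1 was lost without any of 8 libraries (limma adjusted p 0.0539 to 0.0809). The remaining values were 0.49 for Sgk1, 0.39 for Tsc22d3, 0.22 for Zbtb16, -0.04 for Klf15, 0.01 for Klf9 (-0.06 under median-ratio scaling) and -0.21 for Nr3c1.

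The difference between the melanoma effect with rFibcd1 and with mock was tested as an interaction. By limma 0 of 10 members passed, against 0.0223% of all genes, and 5 of 10 had an unadjusted p under 0.05, against 8.79% of genes: Ddit4 (-1.33), Fkbp5 (-1.28), Zbtb16 (-1.15), Klf15 (-0.81) and Sgk1 (-0.64), at adjusted p from 0.507 to 0.548. The melanoma effect of these members was thus called with mock and, apart from Fkbp5, not with rFibcd1, and the difference between the 2 settings did not pass its own test. All 10 interaction values were below 0, but that of Nr3c1 was -0.01 and, under median-ratio scaling, 0.14, and that of Pik3r1 was -0.10 and 0.04. The interaction and the comparison of rFibcd1 with mock share the cachectic libraries, so they are not independent of each other.

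The other genes of the pathway were read from 4 lists. In mock-treated diaphragm 14 of 25 other genes known to answer to glucocorticoids were called higher with the cachectic melanoma and 0 lower, against 30.9% of all genes higher, led by Mt2 (4.22), Mt1 (2.69) and Lcn2 (2.43). The first pair encodes metal-binding metallothioneins and Lcn2 an acute-phase lipocalin, and all 3 also respond to inflammation. The counts were 19 higher and 1 lower of 24 tested in tibialis anterior, where 56.4% of all genes were higher, with Mt2 (7.52), Mt1 (5.24) and Lcn2 (4.15) highest and the phosphatase gene Dusp1 (-0.85) lower, and 12 higher and 0 lower of 24 in soleus, where 17.5% were higher, with Mt2 (4.76), Mt1 (3.00) and Lcn2 (2.38) highest. With rFibcd1 in both groups 6 of 25 were higher (Mt2 3.32, Lcn2 2.23 and Mt1 1.82), and 9.11% of all genes were called in either direction. Under median-ratio scaling 9, 14, 11 and 6 were higher in the same order, and 0, 1, 0 and 0 lower, where 7.34%, 18.3%, 15.2% and 4.27% of all genes were higher. Between rFibcd1 and mock 0 of these genes were called with either melanoma.

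For receptor chaperones and cofactors the share called was near or below that of all genes, and the direction depended on the scaling. Of 14 genes, 3 were called higher in mock-treated diaphragm (30.9% of all genes), among them the cofactors Ncoa1 (0.33) and Crebbp (0.32), but under median-ratio scaling 0 were higher and 3 lower. In tibialis anterior 8 were higher (56.4% of all genes), led by the chaperones Hsp90ab1 (1.22), Ptges3 (0.83) and Hsp90aa1 (0.59), and 1 was lower, the mineralocorticoid receptor Nr3c2 (-0.42), but under median-ratio scaling 2 were higher and 4 lower. In soleus (25.1% of all genes called) Hsp90ab1 (0.67) was higher and Nr3c2 (-0.48) lower, with 1 higher and 3 lower under that scaling. With rFibcd1 in both groups 1 was higher, Ptges3 (0.28).

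Of 5 genes of glucocorticoid activation and breakdown, 2 passed the filter. H6pd, which supplies the cofactor for the enzyme made from Hsd11b1, was higher with the cachectic melanoma in mock-treated diaphragm (0.76) and tibialis anterior (1.35). Akr1c14, a reductase of steroids, was lower in mock-treated diaphragm (-0.77), tibialis anterior (-0.42) and soleus (-0.98). Both kept their call and direction under median-ratio scaling.

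Clock genes were called in both directions. In mock-treated diaphragm Nfil3 (1.46) and Cry1 (0.60) were higher and Nr1d1 (-1.05) and Bhlhe41 (-0.70) lower of 16 tested, against 33.5% of all genes called. Of 15 tested, 5 were higher and 3 lower in tibialis anterior (2 and 6 under median-ratio scaling), against 60.2% of all genes called. In soleus, where 25.1% of all genes were called, 3 were higher and 7 lower of 15, led by Arntl (0.98) and Cry1 (0.63) and by Dbp (-1.26) and Ciart (-1.16). The clock index had medians of -3.56 and -2.77 in non-cachectic and cachectic tibialis anterior and of -3.93 and -2.53 in soleus. The time of day at which tissue was taken is not given in the labels, and its part in the members' differences was not tested beyond the fits with the index as a term.

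How the members varied from library to library within a group was examined in the 39 diaphragm libraries, on log2(TPM + 1) minus the mean of the group. Of 45 pairs, 30 passed an adjusted p of 0.05 (permutation test within groups, 100000 resamples, Benjamini-Hochberg over the 45 pairs), and 29 of these were positive. The median r was 0.48 over all 45 pairs of members and 0.26 over all pairs of the 13426 genes tested, which share the libraries and their scaling, so that positive pairs were common in the table. Tsc22d3 and Ddit4 were the closest pair (Pearson's r 0.83, Spearman's rho 0.87, permutation p 1e-05 for each, the smallest that these resamples can give, adjusted p 0.00015 and 0.000112). The r of this pair was 0.76 without the 2 libraries farthest from the median of Tsc22d3. Zbtb16 and Klf15 (r 0.78), Fkbp5 and Ddit4 (r 0.75), Klf15 and Klf9 (r 0.75) and Zbtb16 and Klf9 (r 0.72) followed, the first pair of these and Fkbp5 and Ddit4 at the same smallest permutation p and both pairs with Klf9 at 3e-05.

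Zbtb16 and Ddit4 correlated positively with 8 of the 9 other members, Tsc22d3, Klf15 and Sgk1 with 7, Fkbp5 and Klf9 with 6, Pik3r1 with 5 and Hsd11b1 with 4. Nr3c1 correlated positively with none. Its only called pair was negative, with Fkbp5 (r -0.60, rho -0.54, permutation p 0.00088 and 0.00157, adjusted p 0.00305 and 0.00353). It was -0.52 without the 2 libraries farthest from the median of Nr3c1, -0.62 within the 26 libraries with high Pcna-ps2 and -0.68 under median-ratio scaling. On the log2 scale the SD of Fkbp5 was 1.37 in cachectic and 0.20 in non-cachectic rFibcd1 diaphragm, so the groups weigh unequally in these values. The r within single groups was not tested. Nr3c1 and Klf9 had an r of 0.47 (adjusted p 0.0525), which was 0.19 without 2 libraries. Within the 26 libraries 27 pairs were called, 25 of them positive, and Nr3c1 was then also negative with Hsd11b1 (r -0.59, adjusted p 0.00841).

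**Figure D4:**
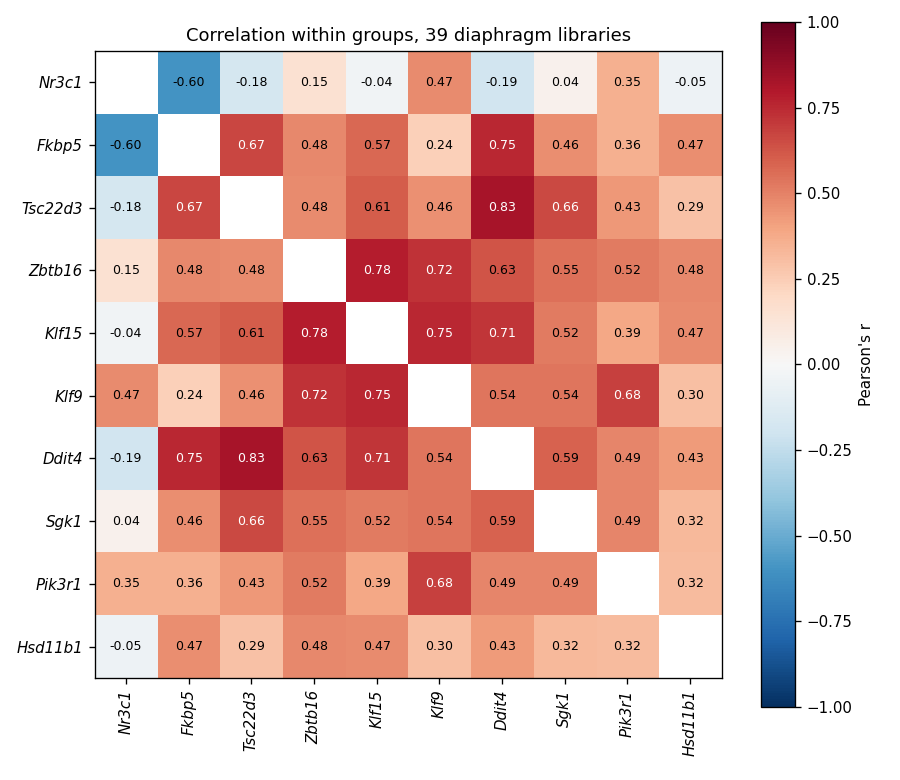
Pearson's r between the members over 39 diaphragm libraries, on log2(TPM + 1) minus the group mean, from blue (negative) to red (positive). The targets form a red block, with r up to 0.83 for Tsc22d3 and Ddit4, while the row of Nr3c1 is pale apart from its negative r with Fkbp5 (-0.60) and a positive one with Klf9 (0.47).

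**Figure D5:**
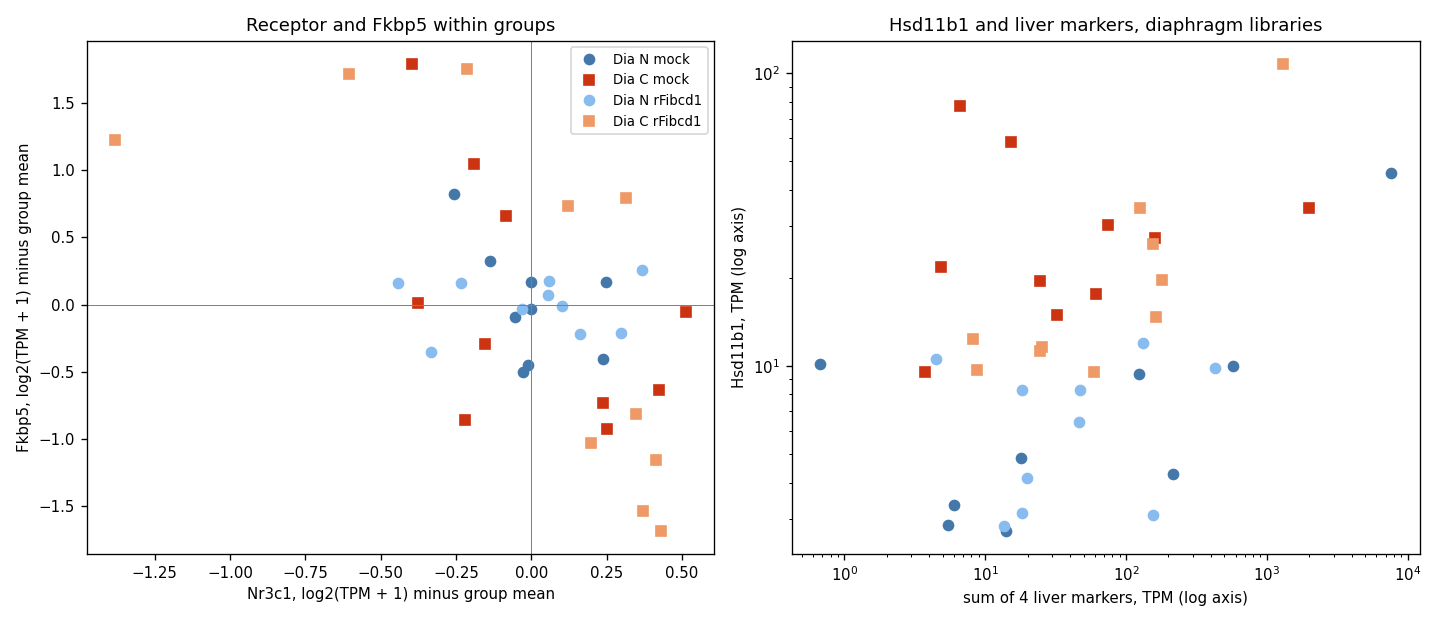
Left, Nr3c1 against Fkbp5 in 39 diaphragm libraries, both as log2(TPM + 1) minus the group mean (r -0.60). Right, Hsd11b1 against the sum of 4 liver markers (TPM, log axes), where library 64 of the non-cachectic mock group is at the far right with 7610 TPM of liver markers and 45.7 TPM of Hsd11b1.

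The genes whose within-group pattern was most like that of a member were taken from the 13426 genes tested in diaphragm, as a description over the same 39 libraries, which share their state, scaling and group means. Fkbp5 was most like Apod (r 0.90), Phyhd1 (0.89) and Map3k6 (0.89). Zbtb16 was most like Foxo3 (r 0.90), Wbp1l (0.87) and Foxo1 (0.86), and Klf15 most like Foxo3 (0.88), Rnf144b (0.86) and Gucd1 (0.84). Foxo1 and Foxo3 encode transcription factors of the FoxO family that drive atrophy genes in muscle.

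Ddit4 was most like Map3k6 (r 0.86), Tsc22d3 (0.83) and Lrrc8a (0.82), and Tsc22d3 most like Kcna5 (0.84), Fam107a (0.84) and Lrrc8a (0.83). Map3k6 and Lrrc8a thus each stood near 2 members. Klf9 was most like Ubr3 (0.88), Tnrc6b (0.87) and Spag9 (0.85), Pik3r1 most like Fgf2 (0.82), Klf13 (0.81) and Hipk1 (0.80), and Sgk1 most like Prkrir (0.78), Limch1 (0.70) and Tmem38b (0.69). Hsd11b1 was most like Agt (0.84), Kng2 (0.82) and Trabd (0.80), of which Agt and Kng2 encode plasma proteins made mainly in liver. Nr3c1 was most like Pura (0.94), Nek1 (0.93) and Bdp1 (0.92), none of which was among the nearest genes of its targets.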

How the data were processed

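RNA was taken from 59 muscle samples in 8 groups. The authors deposited 1 table of TPM (length-normalised transcript shares that sum to 1000000 per library) per gene symbol, made with CLC Genomics Workbench on the mouse genome (mm10 per the labels), and the annotation they used is not given in the sources used here. Labels and methods name different library kits and sequencers. TPM carry no depth, so no count test was possible and no interval is given. Groups came from the labels. Where nothing states that samples are separate mice, p-values measure the spread between samples.

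log2(TPM + 1) was fitted with limma 3.58.1 in R 4.3.3 (empirical Bayes with trend), on genes of at least 1 TPM in as many samples as the smallest group, adjusted by Benjamini-Hochberg over all genes. The diaphragm (39 samples), each limb muscle (10) and the 39 samples without rFibcd1 were fitted separately. Correlations used SciPy 1.17.1. Alternatives were a pseudocount of 0.1, no filter, a mean of 5 TPM, median-ratio scaling, the Dunn test, only the groups compared, the Pcna-ps2 state, the clock index, and leaving out each library. For comparisons between muscles 2 alternatives, a block on column numbers and number-matched diaphragm libraries, were chosen after seeing the data. The limma fit was tested on simulated data with 200 changed genes.

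Named genes were the 10 members, up to 3 called genes in each direction of 4 lists, and the 3 genes most like each member. The value of 1 called gene is not reported here. Members and lists were chosen with earlier results of these data known.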

Additional observations from a re-analysis of the deposited data

Results flagged for a closer look

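Dixon's criterion at 95% was applied to log2(TPM + 1) in the 80 groups of values (10 members in 8 groups). In 6 of them the most extreme library stood apart from the next by more than it allows, and chance alone gives about 1 in 20. The values below are given in TPM, on which the criterion was not applied. Fkbp5 in non-cachectic soleus was at 20.1 TPM in library 62, with the next at 11.3 TPM. Klf15 in cachectic mock diaphragm was at 244 TPM in library 20, with the next at 101 TPM. Klf9 in cachectic rFibcd1 diaphragm was lowest at 20.7 TPM in library 11, with the next at 49.5 TPM. Hsd11b1 did so 3 times, at 108 TPM in library 3 of cachectic rFibcd1 diaphragm (next 34.7 TPM), at 45.7 TPM in library 64 of non-cachectic mock diaphragm (next 10.1 TPM) and at 33.2 TPM in library 8 of cachectic soleus (next 11.6 TPM). The sum of liver markers was 1299 TPM in the first and 7610 TPM in the second of these, and at most 1.45 TPM in cachectic soleus. Library 8 of soleus held 7569 TPM of adipocyte markers, against 707 to 2394 TPM in the rest of its group.

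For 2 members the melanoma effect differed between muscles by limma. The effect on Pik3r1 in diaphragm minus that in tibialis anterior was -0.93, and in tibialis anterior minus soleus 1.04. The effect on Sgk1 in tibialis anterior minus soleus was 0.99. The comparisons share the tibialis anterior libraries, and 5.04% and 20.4% of all genes were called in them.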

How the results depend on the processing

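Members called ranged, over fits without each library in turn, from 8 to 8 between the melanomas in mock diaphragm, 1 to 3 with rFibcd1, 0 to 4 for rFibcd1 against mock with the cachectic and 0 to 0 with the non-cachectic melanoma, 0 to 0 for the interaction, 8 to 9 in tibialis anterior, 6 to 8 in soleus, 6 to 7, 1 to 3 and 4 to 5 between muscles, and 0 to 1, 0 to 0 and 1 to 3 for the difference of effects. Between the melanomas with rFibcd1, 0 members were called by the Dunn test, 0 with the clock index, 1 in a fit of the 2 groups and 0 with high Pcna-ps2 only. With high Pcna-ps2 only, 5 were called in mock diaphragm and 4 for rFibcd1 in cachectic mice, and with the clock index, which does not overlap between the groups there, 0 in soleus. Between diaphragm and soleus 2 were called with a pseudocount of 0.1, 3 under median-ratio scaling (against 47.3% of all genes) and 2 with a block on column numbers. For the effect in diaphragm against tibialis anterior 0 were called without the filter and 0 with number-matched libraries. For the effect in tibialis anterior against soleus 1 was called without the filter, 1 under median-ratio scaling (against 11.6% of all genes) and 4 with that block. The counts in this paragraph without a share of all genes beside them do not show whether the members differed from other genes.

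The signs of the following values turned, none of them called in the fit reported; those called under the alternative have their limma adjusted p. Under median-ratio scaling, Klf9 between the melanomas with rFibcd1 was -0.061, rFibcd1 in non-cachectic mice gave Klf15 -0.067, Klf9 -0.14 and Sgk1 -0.076, the interaction Nr3c1 0.14 and Pik3r1 0.045, and tibialis anterior Nr3c1 -0.47 (adjusted p 0.021) and Klf9 -0.21. Diaphragm against tibialis anterior then gave Nr3c1 -0.48 (adjusted p 0.00213), Fkbp5 -0.22 and Ddit4 -0.23, and the differences of effects gave Nr3c1 0.046 and Zbtb16 0.073 (diaphragm, tibialis anterior), Nr3c1 -0.0030 and Pik3r1 -0.032 (diaphragm, soleus) and Nr3c1 -0.049 (tibialis anterior, soleus). With the clock index, Klf9 was -0.14 with rFibcd1, Tsc22d3 0.20 and Ddit4 0.54 for rFibcd1 in non-cachectic mice, Nr3c1 0.046 in the interaction and Klf9 0.088 in soleus. With Pcna-ps2 state as a term, Klf9 was -0.054 between the melanomas with rFibcd1 and -0.050 for rFibcd1 in non-cachectic mice, and the interaction gave Nr3c1 0.14 and Hsd11b1 0.030. High Pcna-ps2 libraries gave Ddit4 0.27 and Sgk1 -0.028 for rFibcd1 in non-cachectic mice and Nr3c1 0.22 in the interaction. For the difference of effects between diaphragm and tibialis anterior, a pseudocount of 0.1 gave Hsd11b1 -0.092 and number-matched libraries Sgk1 0.039, and for that between diaphragm and soleus number-matched libraries gave Ddit4 -0.034 and Hsd11b1 0.081. Leaving out 1 library turned 57 values of 13 results, none larger than 0.25. Over all libraries left out, Klf15 and Klf9 between the melanomas with rFibcd1 lay between -0.20 and 0.039 and between -0.071 and 0.19, Ddit4 and Hsd11b1 for rFibcd1 in non-cachectic mice between -0.13 and 0.075 and between -0.27 and 0.18, and Nr3c1 and Pik3r1 in the interaction between -0.059 and 0.14 and between -0.16 and 0.0091. Nr3c1 in tibialis anterior lay between -0.017 and 0.068, and Tsc22d3 in diaphragm minus soleus between -0.073 and 0.12. The difference of effects between diaphragm and tibialis anterior lay between -0.60 and 0.0012 for Fkbp5, -0.49 and 0.11 for Zbtb16 and -0.040 and 0.19 for Klf9, and that of Hsd11b1 between -0.24 and 0.25 (diaphragm, soleus) and -0.51 and 0.0016 (tibialis anterior, soleus). The cause was not tested.

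Of the other alternatives, 817 values kept their direction and side of the threshold, 39 lost and 21 gained a call. The labels' replicate numbers are not carried by the columns of the table. No paired analysis was possible because of this, apart from a block on the column numbers that muscles share: of 30 same-numbered pairs of muscle libraries, 28 deviated from their group means with a correlation above 0.1 (0.01 to 0.50) and 25 correlated best with their own number. With this block Fkbp5 (1.35, limma adjusted p 0.0124) and Tsc22d3 (0.66, limma adjusted p 0.0344) joined the calls on the effect in tibialis anterior minus soleus. Depth is unknown, and groups of 5 limit what limb muscle can show.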

Other observations

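Libraries of the 3 muscles share column numbers (6 to 10 and 61 to 65), which the labels do not tie to mice. Among these libraries, with the cachectic melanoma the same number had the highest value in diaphragm, tibialis anterior and soleus for 4 of 10 members, against 31.2% of 11890 genes, and the lowest for 3 of 10, against 13.4%. With the non-cachectic melanoma these counts were 4 of 10, against 18.9% of 10982 genes, and 3 of 10, against 13.7%. Number 8 was highest in all 3 muscles for Fkbp5, Zbtb16 and Hsd11b1, and number 7 for Ddit4. Number 6 was lowest in all 3 for Tsc22d3, Zbtb16 and Ddit4. With the non-cachectic melanoma number 62 was highest in all 3 for Fkbp5 and Ddit4, number 63 for Tsc22d3 and number 64 for Hsd11b1, and number 61 lowest for Tsc22d3, Zbtb16 and Ddit4.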
